A study of Mus musculus with 16 samples.

Results

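Gene expression was compared between peritoneal macrophages of B10.Q/J mice killed 2 h after interferon alpha (IFNα) was injected under the skin and macrophages of B10.Q/J mice given vehicle. The comparison holds 4 of the 16 Affymetrix Mouse Gene 1.0 ST arrays of the series. They were chosen by their titles: 2 arrays of IFNα at 2 h and both macrophage arrays with vehicle. The IFNα dose was 10000 units. All mice were male and 7 weeks old, and the cells were sorted as F4/80+ ICAM2+ on a FACSAria straight into TriZol. The vehicle pair joins 1 array taken at 2 h (vehicle array 1) and 1 taken at 5 h (vehicle array 2). B10.Q is known for a natural mutation in Tyk2, a kinase bound to the type I interferon receptor, and both the treated and the vehicle mice were of this strain. Whether an array held cells of 1 mouse or of a pool is not given in the sources used here, and neither is whether replicate arrays stand for different mice. The p-values therefore rest on a spread that may be technical.

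Other arrays of the series served for 3 side comparisons. B10.Q/J macrophages at 5 h of the same dose (2 arrays) share the vehicle pair. Macrophages of the line B6.129S2-Ifnar1tm1Agt/Mmjax, which lacks the receptor chain Ifnar1 (KO; male, 6 weeks), came as 2 arrays at 2 h of IFNα and 2 titled without it. The preparation text of those titled without IFNα nevertheless states the 2 h IFNα injection, and the title was followed. Splenic CD4 T cells of male 7-week-old B10.Q/J mice came as 2 arrays at 2 h of IFNα and 2 with vehicle, again 1 of 2 h and 1 of 5 h. The title of the 2 h vehicle array begins with the letter B, while its cell family is given as CD4 T cell, and the latter was followed. The series title asks how far interferon-stimulated genes depend on Ifnar1 and Tyk2.

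A type I interferon binds a receptor of Ifnar1 and Ifnar2, which activates the kinases Jak1 and Tyk2. These phosphorylate transcription factors such as Stat2, which with Irf9 forms part of a complex that enters the nucleus and binds interferon-stimulated response elements (ISRE) in promoters. The genes so induced block viral replication, sense foreign nucleic acid, present antigen and feed back on the signal. Resident macrophages of the peritoneal cavity are long-lived phagocytes that depend on the transcription factor Gata6.

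The sorted cells carried the macrophage programme on all 4 arrays. Each of the 16 peritoneal macrophage markers with a probe set of its own lay above its array's median on all 4 arrays. Gata6 read 11.64 and 11.61 with vehicle and 11.31 and 11.44 with IFNα, on the log2 scale of the deposited intensity that is used for all levels here. The mean of the macrophage markers ran from 12.49 to 12.55 over the 4 arrays. All 9 T cell markers, all 7 NK cell markers and all 9 neutrophil markers with a probe set lay below the median on all 4 arrays. Of the 8 B cell markers 6 lay below it on all 4 and 1 lay above it. Of the 7 markers of monocytes and small peritoneal macrophages 3 lay above it on all 4 and 3 below, and their mean ran from 8.08 to 8.23.

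IFNα array 1 stood apart from the other 3. Its ratio of upper to lower quartile of intensity was 6.06, against 7.14 to 7.21 in the others. It correlated with the vehicle arrays over genes at r = 0.987 and r = 0.988, while IFNα array 2 did so at r = 0.995 with both and the vehicle arrays with each other at r = 0.997. Over the 10531 genes tested its median difference from the vehicle mean was -0.11, against -0.02 for IFNα array 2. The mean of T cell markers read 6.79 on it against 6.66 to 6.71 on the other 3, and that of NK cell markers 5.41 against 5.20 to 5.27. Means of neutrophil (5.92 against 5.73 to 5.85) and dendritic cell markers (6.84 against 6.59 to 6.66) were also highest on it. So were those of B cells, eosinophils and mesothelial cells, but not those of mast cells, erythroid cells, monocytes and macrophages. Its lower quartile of log2 intensity was 6.43, against 6.30 to 6.31 on the other 3. It is also the array of the 4 whose title carries the code PC, while the other 3 titles carry Sp, although the source of all 4 is given as the peritoneal cavity. The part of these features in the results was not tested, and the main counts are given with and without this array.

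At 2 h 84 of 10531 genes were higher with IFNα (0.798% of those tested), and 0 were lower (0%), at an adjusted p under 0.05 by limma on 10 macrophage arrays in 5 groups. A gene past this threshold is termed called. In such bulk RNA a change in the make-up of the sorted cells and a change per cell cannot be told apart. At an unadjusted p under 0.05 there were 268 higher and 208 lower genes. The 84 had a median difference of 1.59 on the log2 scale, with a range from 0.71 to 5.22, against a median of -0.07 over all genes tested. The difference was at least 4 for 8 of them, at least 2 for 27 and under 1 for 12. The IFNα pair lay above the vehicle pair without overlap in all 84, as in 1191 genes tested (11.3%), and below it in 3386 (32.2%). After quantile normalization those shares were 14.7% and 28.8%. Without IFNα array 1 the count of higher genes was 43, of which 42 were among the 84. Without IFNα array 2 it was 121, of which 81 were. Without vehicle array 1 it was 34 and without vehicle array 2 it was 36, all of them among the 84.

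The 8 genes with a difference of at least 4 were Mx1, Ifit1, Mx2, Rtp4, Usp18, Rsad2, Ifit3 and Ifi205. Mx1, a dynamin-like GTPase that blocks influenza virus in the nucleus, read 6.15 and 6.12 with vehicle and 11.87 and 10.84 with IFNα. Both IFNα values lay far above both vehicle values, and IFNα array 1 was the higher. The difference was 5.22 ± 0.26 (SE, n = 2 arrays per group, limma adjusted p = 1.44e-05). Mx1, Mx2, Ifit1, Ifit3, Rsad2, Ifi205 and Ifi208 had vehicle values below the lower quartile of both vehicle arrays. Their differences start from levels near background, so no fold is given for them.

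**Figure D1:**
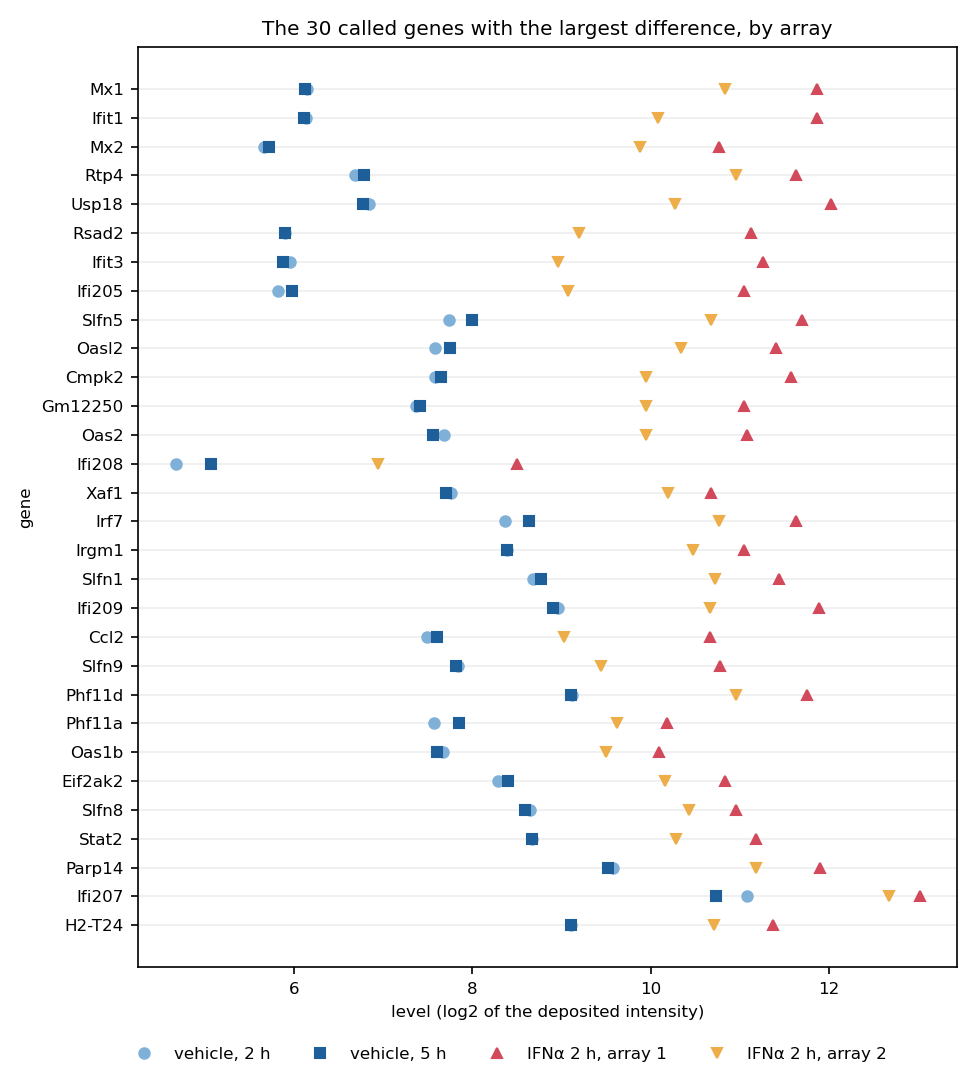
Level (log2 of the deposited intensity) of the 30 called genes with the largest difference, from Mx1 at the top (5.22) to H2-T24 at the bottom (1.94). Each symbol is 1 array: the circle and the square are vehicle at 2 h and 5 h, the triangles are IFNα arrays 1 and 2; in each gene both triangles lie to the right of both vehicle symbols, and IFNα array 1 lies farther right.

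The size of the response differed between the IFNα arrays. In 83 of the 84 genes IFNα array 1 was higher than array 2. The exception was Arg1, the arginase of alternatively activated macrophages, which read 10.85 on array 1 and 11.02 on array 2, against 10.02 and 10.26 with vehicle. The median rise over the vehicle mean was 1.90 on array 1 and 1.22 on array 2. Gene by gene, the rise on array 2 was 68.3% of that on array 1 at the median, with quartiles of 59.5% and 77.0% and a range from 44.9% to 124%. None of the 84 lay below its vehicle mean on either array.

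**Figure D2:**
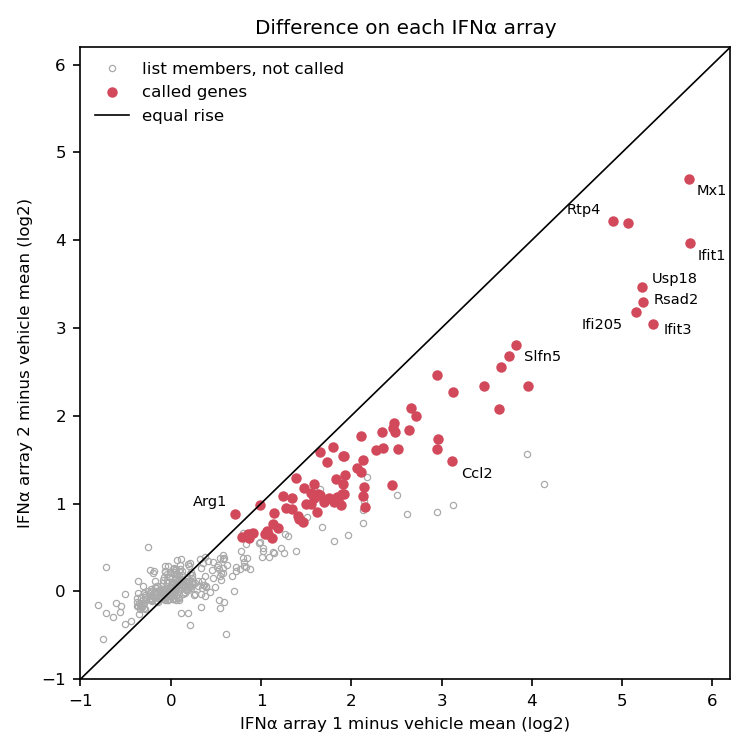
Difference from the vehicle mean (log2) on IFNα array 1 (horizontal) and IFNα array 2 (vertical). Filled points are the 84 called genes, open points are tested members of the gene lists that were not called, and the line marks equal rises; 83 of the 84 filled points lie below it, and Arg1 lies above.

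Promoter sequence was not used to choose the genes. RefSeq promoters (build GRCm38.p6, 250 bases before to 50 after the annotated start) were at hand for 66 of the 84 genes and for 8528 of the genes tested. The ISRE core was taken as GAAANNGAAA on either strand. It was present for 27 of the 66 genes (40.9%), against 3.75% of promoters of all genes tested and 3.99% of the 27025 genes of the table. The share was 65.0% for called genes with a difference of 2 or more (13 of 20) and 30.4% for those under 2 (14 of 46). It was 14.3% (21 of 147) for genes that were higher at an unadjusted p under 0.05 without a call, 3.07% (5 of 163) for genes that were lower at that p, and 3.28% for the rest. The GAS core, another motif of interferon responses, taken as TTCNNNGAA, which is its own reverse complement, was present for 8 of the 66 (12.1%), against 8.06% of genes tested and 9.55% of the table. Of 336 windows of tested genes with an ISRE core, 11 had a GAS core that overlapped it.

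**Figure D3:**
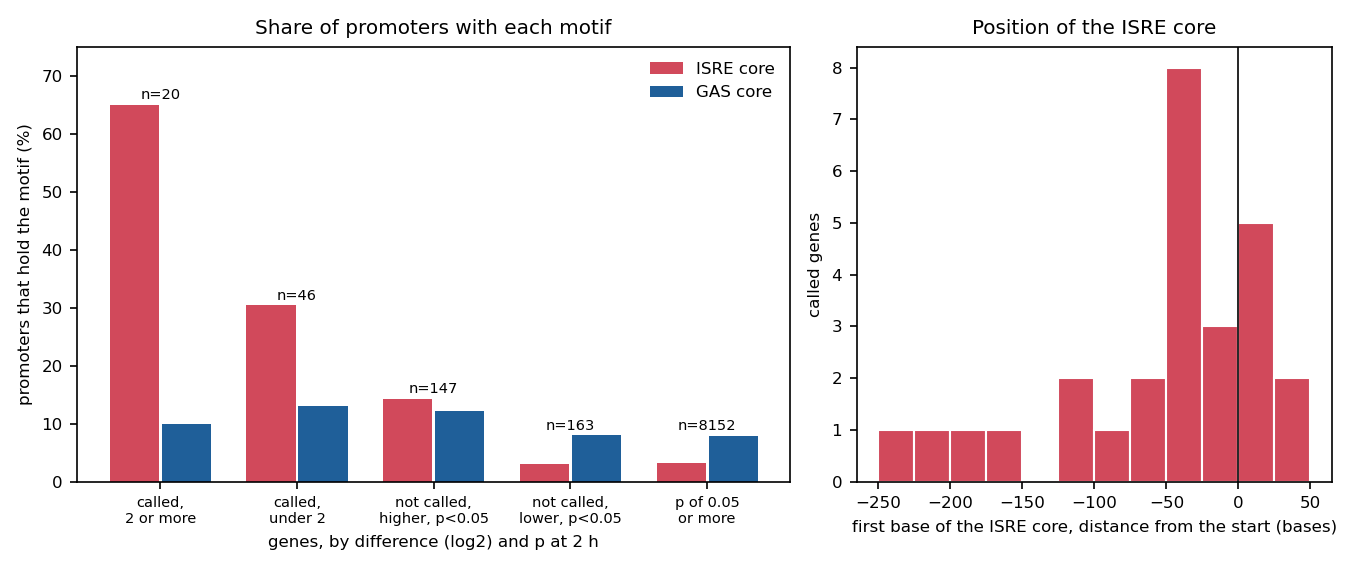
Left, percentage of promoters that hold the ISRE core (red) or the GAS core (blue) by class of genes at 2 h, with the number of promoters above each pair of bars; the ISRE share is 65.0% in the leftmost class and 3.28% in the rightmost, while the GAS share lies between 7.95% and 13.0%. Right, number of called genes by distance of the first base of the nearest ISRE core from the annotated start, which the vertical line marks.

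In 20 of the 27 genes the nearest ISRE core began upstream of the annotated start, and in 14 of these within 100 bases of it. In the other 7 it began within the 50 bases after the start. In 7 genes a window held more than 1 match. The stretches below are shown because they carry the match for the genes with the smallest adjusted p. They are 80 bases each, written 5′ to 3′ on the strand of the gene, and capitals mark the ISRE core, which reads TTTC first where it lies on the other strand. Slfn8 (chr11:83020814-83020893, minus strand) belongs to the Schlafen family, Ifi207 (chr1:173741810-173741889, minus strand) to the PYHIN family of DNA-binding proteins, and Slfn5 (chr11:82951912-82951991, plus strand) is a nuclear Schlafen. Ifit1 (chr19:34640769-34640848, plus strand) binds viral RNA caps and has 2 matches here. Oas1a (chr5:120907526-120907605, minus strand) makes the messenger that activates RNase L, and its 2 matches overlap just before the start. Coordinates are those of GRCm38.p6.
Slfn8: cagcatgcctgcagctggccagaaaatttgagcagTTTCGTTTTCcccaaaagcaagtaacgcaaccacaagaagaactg
Ifi207: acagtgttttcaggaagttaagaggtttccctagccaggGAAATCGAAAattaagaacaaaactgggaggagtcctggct
Slfn5: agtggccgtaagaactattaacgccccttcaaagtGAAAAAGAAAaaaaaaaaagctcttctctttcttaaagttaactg
Ifit1: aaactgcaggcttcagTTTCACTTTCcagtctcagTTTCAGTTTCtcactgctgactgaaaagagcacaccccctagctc
Oas1a: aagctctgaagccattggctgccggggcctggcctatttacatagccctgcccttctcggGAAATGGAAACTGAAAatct

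Counted from the start, the core begins at position -48 in Slfn8, -41 in Ifi207 and -155 in Slfn5. In Ifit1 the nearer match begins at -85 and in Oas1a at -14. Eif2ak2, next in order, has its match after the start and is not printed. No RefSeq promoter was in the table for Mx1, Mx2, Rtp4, Usp18, Oas2, Oas1b, Ccl2, Parp14, Parp9, H2-T24, Slfn10-ps, Dhx58, Tor3a, Il15, Siglec1, Ifi27l2a, Arg1 and Gm6548. A match is a description of the letters and not a measured binding site.

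The called genes also lay close together. In the GRCm38.p6 annotation 37 of the 84 (44.0%) had another called gene within 100000 bases, against 199 of 10442 tested genes that were not called (1.91%). They formed 12 clusters. The Schlafen cluster held 8 called genes and no other tested gene between its ends: Slfn5, Slfn9, Slfn8, Slfn10-ps, Slfn2, Slfn1, Slfn4 and Slfn3. The Oas cluster held Oas2, Oas3, Oas1b and Oas1a, with Oas1c tested and not called. A cluster of Trim34a, Trim12c, Trim30a and Trim30d had Trim12a as its tested member without a call. Neighbours of unrelated sequence also rose together, as with Setdb2, a histone methyltransferase, beside Phf11a and Phf11d, and Cmpk2, a nucleotide kinase, beside Rsad2. Gm6548 is annotated as a pseudogene inside Eif2ak2, and its probe set and that of Eif2ak2 may not be told apart. Members of the Schlafen, Oas1, Trim30, PYHIN and Phf11 families are close in sequence, so signal shared between their probe sets cannot be told apart from separate rises.

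Of the 84 genes 63 belonged to the gene lists and 21 to none. Mx1, Mx2, Rtp4, Rsad2 and Cmpk2 were the 5 tested genes of their list, and all 5 rose, with a list median of 4.56. Among macrophage arrays all but Cmpk2 exceeded the array median only on B10.Q arrays with IFNα. A gene needed 2 arrays above the median to be tested, so 5 of 5 was partly set by this filter. Rtp4, a zinc-finger protein that restricts RNA viruses, read 6.68 and 6.79 with vehicle and 11.63 and 10.96 with IFNα (4.56 ± 0.25, adjusted p = 2.16e-05). Its vehicle level was above the lower quartile, and it rose 23.6-fold. Rsad2 encodes viperin, a radical SAM enzyme of antiviral defence, and read 5.90 on both vehicle arrays and 11.13 and 9.19 with IFNα. Its neighbour Cmpk2 went from 7.58 and 7.65 to 11.58 and 9.95, a difference of 3.15 ± 0.40 (adjusted p = 0.00449). All 5 stayed called without IFNα array 1.

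Both tested IFIT genes, which bind viral RNA ends, rose. Among macrophage arrays they exceeded the array median only on B10.Q arrays with IFNα. A gene needed 2 arrays above the median to be tested, so 2 of 2 was partly set by this filter. Ifit1 read 6.13 and 6.11 with vehicle and 11.87 and 10.09 with IFNα (4.86 ± 0.42, adjusted p = 5.42e-04). Ifit3 read 5.96 and 5.87 against 11.26 and 8.96 (4.20 ± 0.58, adjusted p = 0.00794), the widest gap between IFNα arrays of any called gene. Ifit2, Ifit3b and Ifit1bl2 did not pass the filter on dim probe sets and were not tested. Ifit2 read 5.60 and 5.89 with vehicle and 7.70 and 6.03 with IFNα, so array 2 lay close to vehicle.

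In the OAS list 6 of 7 tested genes rose, with a median of 1.83, and all 6 stayed called without IFNα array 1. OAS proteins are synthetases that, on double-stranded RNA, make 2-5A chains that activate RNase L. Oasl2 had the largest difference among them, from 7.58 and 7.75 to 11.41 and 10.35 (3.21 ± 0.34). Oas1a had the smallest adjusted p, from 8.36 and 8.39 to 10.28 and 9.92 (1.72 ± 0.16, adjusted p = 7.74e-04). Oas1b, the flavivirus resistance gene of mice, differed by 2.16 ± 0.21. Oas1c was at 0.68 ± 0.13 with an adjusted p of 0.0512, just outside the threshold. Among macrophage arrays Oas3 exceeded the array median only on B10.Q arrays with IFNα, so 6 of 7 was partly set by the filter.

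Every one of the 7 tested Schlafen genes rose, with a median of 2.08, and 4 of them stayed called without IFNα array 1. The family restricts growth of immune cells and replication of viruses. Slfn8 read 8.64 and 8.59 with vehicle and 10.96 and 10.43 with IFNα (2.08 ± 0.16, adjusted p = 3.48e-04), and the pairs lay well apart. Slfn5 differed by 3.32 ± 0.28, with 11.69 and 10.68 on the IFNα arrays. Slfn2, needed for quiescence of T cells, went from 9.73 and 9.99 to 11.59 and 11.34 (1.61 ± 0.22), and Slfn3 and Slfn4 differed by 1.72 ± 0.23 and 1.57 ± 0.25. Slfn10-ps, a pseudogene outside the list, differed by 1.73 ± 0.15.

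Of 19 tested genes for RNA decay, editing and translation block 8 rose, with a list median of 0.79. All 19 lay above 0, as did 3249 of all 10531 genes tested. Among macrophage arrays Ddx60 exceeded the array median only on B10.Q arrays with IFNα, so 8 of 19 was partly set by the filter. Eif2ak2 (PKR), which stops translation on double-stranded RNA, read 8.29 and 8.41 with vehicle and 10.84 and 10.16 with IFNα (2.15 ± 0.21, adjusted p = 0.00101). Helz2 differed by 1.81 ± 0.20, Ddx60 by 1.61 ± 0.28, Adar, which edits adenosine in double-stranded RNA, by 1.14 ± 0.17, and Zc3hav1 (ZAP), which targets CpG-rich viral RNA, by 0.88 ± 0.17. Without IFNα array 1 the count was 3, namely Eif2ak2, Helz2 and Trex1.

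Of 16 RNA sensing genes 4 rose, Ddx58 (RIG-I), Ifih1 (MDA5), Dhx58 (LGP2) and their partner Trim25, and the list median was 0.13. Without IFNα array 1 Dhx58 and Trim25 lost their call, which left 2. Ddx58 read 9.46 on both vehicle arrays and 11.57 and 10.82 with IFNα (1.73 ± 0.21, adjusted p = 0.00297), and Ifih1 differed by 1.44 ± 0.23. Tlr8, an endosomal receptor of this list, was at 0.49 ± 0.19 without a call. In the list of DNA sensors and PYHIN proteins 6 of 10 rose, with a median of 1.84. Without IFNα array 1 all but Ifi203 stayed called (its adjusted p was then 0.109), and Ifi213 was called in addition (adjusted p = 0.0358). Ifi207 was already high with vehicle, at 11.09 and 10.73, and rose to 13.02 and 12.68 (1.94 ± 0.16, adjusted p = 4.47e-04). Ifi205 read 5.82 and 5.98 with vehicle and 11.05 and 9.08 with IFNα (4.17 ± 0.51). Cgas, which makes the second messenger of cytosolic DNA, rose from 6.78 and 6.70 to 8.12 and 8.03 (1.34 ± 0.14, adjusted p = 0.00161), with nearly equal values on both IFNα arrays. Among macrophage arrays Cgas and Ifi208 exceeded the array median only on B10.Q arrays with IFNα. The 6 of 10 in this list was thus partly set by the filter. Trex1, the exonuclease that removes cytosolic DNA, went from 8.88 and 8.94 to 10.50 and 10.13 (1.40 ± 0.16).

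Of the 5 tested ISG15 conjugation genes Usp18 and Trim25 rose, and Usp18 alone without IFNα array 1. Isg15 itself is not analysed here. Among macrophage arrays Usp18 exceeded the array median only on B10.Q arrays with IFNα, so the count was partly set by the filter. Usp18, which removes ISG15 and also blocks the receptor chain Ifnar2, read 6.84 and 6.78 with vehicle and 12.03 and 10.28 with IFNα (4.34 ± 0.42, adjusted p = 0.00101), a 20.3-fold rise. Herc6, the ISG15 ligase of mice, was not called at 1.53 ± 0.31 (adjusted p = 0.0679), and Ube2l6 and Uba7, the conjugating and activating enzymes, at 0.70 ± 0.25 and 0.38 ± 0.15. In the PARP list 3 of 13 rose, with a median of 0.39, and Dtx3l lost its call without IFNα array 1. Parp14 (1.99 ± 0.22), Parp9 (1.73 ± 0.20) and Dtx3l (1.37 ± 0.19) are neighbours in the genome, and Parp9 and Dtx3l act as a pair.

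Of 15 TRIM and PML body genes 8 rose, the median was 0.79, and 3 stayed called without IFNα array 1. Daxx, a histone chaperone of PML bodies, read 8.61 on both vehicle arrays and 10.36 and 9.67 with IFNα (1.41 ± 0.20, adjusted p = 0.00797). Pml itself differed by 0.95 ± 0.15 and Sp100 by 1.33 ± 0.23. Trim34a rose from 7.93 and 7.99 to 9.10 and 8.86 (1.02 ± 0.12). GTPases that attack vacuoles of pathogens had 2 of 8 genes called and a median of 1.55. Gm12250 rose from 7.37 and 7.42 to 11.05 and 9.95 (3.11 ± 0.44) and Irgm1 from 8.39 on both to 11.05 and 10.48 (2.37 ± 0.38). Without IFNα array 1 neither was called, although array 2 alone lay 2.56 (Gm12250) and 2.09 (Irgm1) above the vehicle mean. The spread of the fit also holds the KO arrays titled without IFNα. These read 7.84 and 9.36 for Gm12250 and 8.37 and 9.88 for Irgm1. Iigp1, at 5.23 and 5.36 with vehicle, read 9.42 on IFNα array 1 and 6.51 on array 2, and Gbp5 went from 7.69 and 7.71 to 10.21 and 8.80, neither of them called.

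In the signalling list 3 of 21 tested genes rose, and they act at its nuclear end. Irf7, which drives further interferon production, read 8.37 and 8.64 with vehicle and 11.63 and 10.77 with IFNα (2.70 ± 0.28, adjusted p = 0.00153). Stat2 read 8.67 on both and then 11.18 and 10.29 (2.07 ± 0.26), and Irf9 read 9.12 and 9.15 and then 10.79 and 10.72 (1.62 ± 0.20). Irf9 was thus nearly equal on both IFNα arrays, and it lost its call without array 1. The spread of the fit also holds the KO arrays titled without IFNα, on which Irf9 read 9.56 and 10.27. The list median was -0.03. Tyk2, whose gene carries the mutation of this strain, read 9.85 and 9.92 with vehicle and 9.85 on both IFNα arrays. The receptor chains Ifnar1 and Ifnar2 were at -0.15 ± 0.15 and -0.02 ± 0.10, and neither these nor Jak1 were called. Irf1 was at 1.41 ± 0.30 (adjusted p = 0.0964). Of 13 feedback genes tested only Usp18 rose; Socs1, an inhibitor of JAK kinases, was at 0.56 ± 0.20 with an adjusted p of 0.764.

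Secreted signals had 1 call in the chemokine list and 1 in the cytokine list, where 0.798% of all genes tested were called higher. Tested were 12 of 19 chemokines and 11 of 17 cytokine genes with a probe set. Ccl2, which recruits monocytes, was the 1 of 12 chemokines that rose, from 7.50 and 7.60 to 10.67 and 9.03 (2.30 ± 0.42, adjusted p = 0.0354), and its adjusted p was 0.0992 without IFNα array 1. Cxcl10, which recruits T cells through Cxcr3, read 6.66 and 6.56 with vehicle and 9.73 and 7.58 with IFNα, and Ccl7 read 6.68 and 6.92 against 9.75 and 7.71. In both genes the pairs did not overlap, and neither was called (limma adjusted p = 0.179 for Cxcl10 and 0.247 for Ccl7). Of 11 cytokine genes Il15, which sustains NK cells and memory T cells, rose from 8.77 and 8.48 to 10.43 and 9.65 (1.41 ± 0.24), a call that was lost without IFNα array 1 (limma adjusted p = 0.22). Il6 was at 1.18 ± 0.38 (adjusted p = 0.601).

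**Figure D4:**
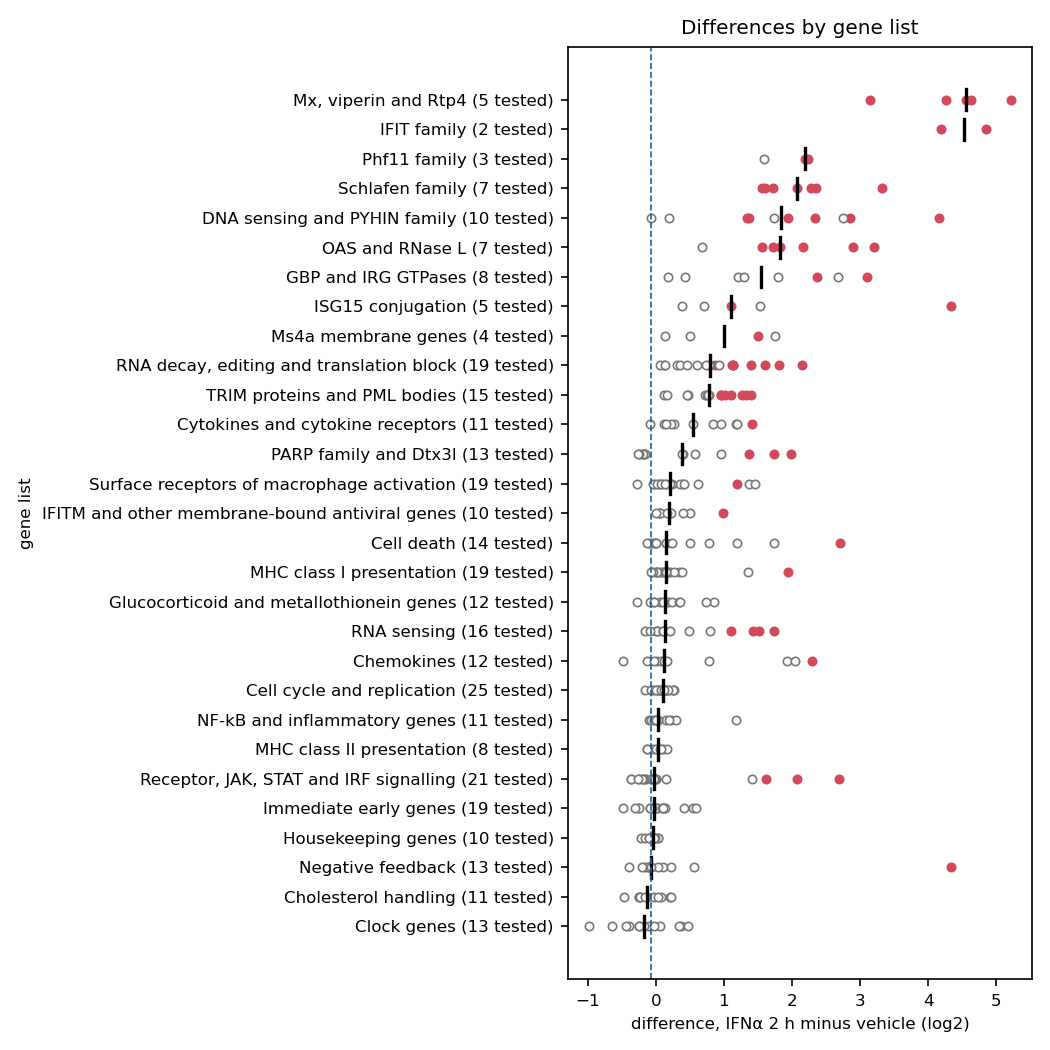
Difference at 2 h (log2, IFNα minus vehicle) of each tested member of 29 gene lists, sorted by the list median. Filled points are called genes, open points are genes without a call, the black bar is the list median and the dashed line is the median over all 10531 genes (-0.07); the list of Mx, viperin and Rtp4 is at the top with a median of 4.56 and the clock genes at the bottom with -0.18.

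H2-T24, a non-classical class I gene, was the 1 of 19 class I presentation genes that rose, from 9.11 on both vehicle arrays to 11.38 and 10.71 (1.94 ± 0.21). Tap1, the peptide transporter, was at 1.35 ± 0.33, without a call. None of the 8 class II genes was called, and their median was 0.04. At 0.798% called over all genes tested, 0 of 8 is no result about that list. Siglec1 (CD169), a sialic acid lectin of macrophages, was the 1 of 19 surface receptors that rose, from 7.66 and 7.96 to 9.15 and 8.87 (1.20 ± 0.17, adjusted p = 0.00827), and its adjusted p was 0.135 without IFNα array 1. Cd274 (PD-L1) was at 1.45 ± 0.34 and Fcgr1, a receptor for IgG, at 1.37 ± 0.27, at adjusted p = 0.14 and 0.0572. Ms4a6c rose by 1.50 ± 0.23 and Ifi27l2a by 0.99 ± 0.15, both without a call when IFNα array 1 was left out, as were Phf11a and Phf11d, the 2 of 3 tested Phf11 genes that rose. Xaf1, a partner of apoptosis inhibitors, rose by 2.71 ± 0.22 and kept its call. Ifitm3, which blocks viral entry, was high throughout, at 13.00 and 12.94 with vehicle and 13.21 and 13.15 with IFNα, without a call.

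The 21 called genes outside the lists had varied known roles. Dck, the kinase of deoxycytidine salvage, read 8.51 and 8.45 with vehicle and 10.41 and 9.80 with IFNα (1.63 ± 0.18, adjusted p = 0.00162). Setdb2, a histone methyltransferase, went from 8.27 and 8.13 to 10.34 and 9.39 (1.67 ± 0.25). Clec2d, a ligand of an inhibitory NK cell receptor, went from 10.27 and 9.89 to 11.56 and 11.26 (1.33 ± 0.18). Other members were Rnf213, a giant ubiquitin ligase (1.44 ± 0.22), Samd9l, an antiviral brake on translation (1.36 ± 0.21), and Tor3a and Tor1aip2, a torsin and a torsin activator (1.46 ± 0.24 and 0.74 ± 0.13). Sass6, a centriole scaffold, differed by 1.25 ± 0.16, the cyclin-family genes Ccnyl1 and Ccnj by 1.16 ± 0.17 and 0.85 ± 0.16, and Mitd1, which acts in cytokinesis, by 0.86 ± 0.16. None of the 25 tested genes of the cell cycle and replication list was called, and that list's median was 0.11. With 0.798% of all genes tested called, 0 of 25 says nothing particular about this list. Prr5l, a component of the kinase complex mTORC2, differed by 1.45 ± 0.25, Zup1, a deubiquitinase, by 1.13 ± 0.19, Epsti1 by 0.87 ± 0.15 and Ogfr by 0.71 ± 0.13. Tent4a, a poly(A) polymerase, differed by 1.26 ± 0.22, and Gdap10 and 9330175E14Rik by 1.55 ± 0.26 and 1.34 ± 0.19. Of these genes Dck, Setdb2, Rnf213, Sass6 and Slfn10-ps stayed called without IFNα array 1.

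No gene was called lower. The smallest p among lower genes was that of Hes1, a repressor induced by Notch, which read 8.02 and 8.58 with vehicle and 7.37 and 7.60 with IFNα (-0.82 ± 0.20, adjusted p = 0.201). Cnr2, the cannabinoid receptor of immune cells, had tight pairs, at 7.56 on both vehicle arrays and 7.12 and 7.14 with IFNα (-0.43 ± 0.11, adjusted p = 0.238). Then came Tex30, Gask1b, Thra, Epha2, Qpct, Itga5, Anp32-ps, Pnn, Mapkapk3 and E030030I06Rik, with adjusted p between 0.238 and 0.511. In all 12 the IFNα pair lay below the vehicle pair without overlap, where 32.2% of all genes tested did. Cholesterol handling genes, a group known to fall in interferon-treated macrophages, had a median of -0.12, and Hmgcs1 was at -0.47 ± 0.17. Of the 11 tested 0 were called, and over all 10531 genes tested 0 were called lower.

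The vehicle pair spans 2 times after injection, and clock genes differed within it. Nr1d1 (REV-ERBα), a repressor of the clock, read 9.64 in the 2 h vehicle array and 11.07 in the 5 h one, against 9.10 and 9.66 with IFNα at 2 h. The IFNα values thus lay near or below the 2 h vehicle value and well below the 5 h one. At 5 h of IFNα it read 11.16 and 10.98. Dbp, an output gene of the clock, read 7.60 and 8.91 with vehicle. With IFNα it read 7.75 and 7.88 at 2 h, and 8.93 and 8.96 at 5 h. Arntl (BMAL1), the activator, ran the other way, with 9.45 and 8.73 for vehicle. Its IFNα values were 9.50 and 9.43 at 2 h, and 8.80 and 8.77 at 5 h. The vehicle arrays differed by more than 0.5 in 7 of the 13 clock genes tested, against 111 of all 10531 genes tested (1.05%). Against the 5 h vehicle alone Dbp and Nr1d2 were called lower (-1.10 and -1.12, limma adjusted p = 0.0429 and 0.0463). Within the vehicle pair, which has 1 array per time, the time and the single array cannot be told apart. The IFNα values of both times are given beside it, and the cause of the gap was not tested.

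Over the 84 genes the median difference between the vehicle arrays was 0.00. The largest was 0.49, in Ms4a6c, which read 8.62 at 2 h and 9.11 at 5 h. A gap over 0.5 was thus absent, but only 1.05% of all genes tested had one. The gap also enters the spread by which the 84 were chosen, so its absence is no separate result. Against the 2 h vehicle array alone 36 genes were called, all of them among the 84. In such fits the remaining array borrows its spread from the other groups.

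In macrophages without Ifnar1, Mx1 read 6.36 and 6.43 in KO arrays titled without IFNα and 6.25 and 6.14 in those with it. Irf7 read 8.42 and 8.92, and then 7.87 and 8.40. Over the 84 genes the KO difference had a median of -0.20, against -0.01 over all genes tested. Its highest value was 0.60 (Clec2d) and its lowest -0.98 (Gm12250), with 19 of the 84 above and 65 below 0. The KO arrays titled without IFNα differed on these genes, with 68 of the 84 higher on array 2 than on array 1 and a median gap of 0.18. Gm12250 read 7.84 and 9.36 on them against 7.67 and 7.58 with IFNα, so its -0.98 rests on array 2. The difference of the responses, B10.Q minus KO, was higher at an adjusted p under 0.05 for 43 of 10531 genes (0.408%), by limma, and 41 of the 84 were among them. The other 2 were Chek1, a checkpoint kinase, and Axl, a receptor tyrosine kinase. They were at 0.25 and 0.40 in B10.Q and at -0.97 and -1.11 in KO. The B10.Q arrays that chose the 84 also enter this difference, so the count is no separate support. It was 5.42 ± 0.37 for Mx1 and 2.29 for Irf9 at adjusted p = 2.70e-04 and 0.00895. Clec2d, at 0.72 ± 0.26 (adjusted p = 0.606), and Ccl2, at 2.45 ± 0.59 (adjusted p = 0.205), were among the members that did not pass. Counted in both directions, the 43 became 90 without IFNα array 2, of which 2 were lower in B10.Q, and 9 and 11 without vehicle arrays 1 and 2. They became 95 and 490 without KO IFNα arrays 1 and 2, of which 7 and 131 were lower, and 8 without the second KO array titled without IFNα. If the preparation text of the KO control arrays is right, both KO groups were treated. B10.Q and KO mice also differed in strain (B10.Q being known for its Tyk2 mutation) and in age (7 and 6 weeks). Their controls differed too, being vehicle in B10.Q and arrays titled without IFNα in KO. The part of Ifnar1 in the difference of the responses cannot be told apart from these.

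T cells of the same strain were taken at the same dose and time. Of the 84 genes 40 were also called higher in T cells, where 58 of 11161 genes were (0.52%). In T cells 80 of the 84 lay above 0, with a median of 1.01 against -0.02 over all genes tested. Ifit1 was at 5.24 in T cells and 4.86 in macrophages, and Usp18 at 3.43 and 4.34. The difference between the cell types passed the test for 3 of 11161 genes (0.0269%), all higher in macrophages and all among the 84: Mx1, Trex1 and Dck. Mx1 read 5.96 and 5.84 in T cells with vehicle and 7.23 and 6.41 with IFNα, so the macrophage rise exceeded that of T cells by 4.30 ± 0.42 (adjusted p = 0.00302). Trex1 read 8.52 and 8.34, and then 8.48 and 8.50 (1.34 ± 0.17, adjusted p = 0.022). Dck read 9.58 and 9.32, and then 9.04 and 9.36 (1.88 ± 0.24, adjusted p = 0.0223), so its T-cell vehicle level lay above that of macrophages. Cgas, Ifi205, Clec2d and Siglec1 followed with an adjusted p of 0.0561 each. Mx1 passed under all 16 alternatives tried, and Trex1 and Dck passed under 12, losing their call when any vehicle array of either cell type was left out. The count of 3 was then 1 in each case. Counted in both directions, it was 7 and 94 without macrophage IFNα arrays 1 and 2, with 24 of the 94 lower in macrophages. It was 18 and 507 without T-cell IFNα arrays 1 and 2, of which 6 and 243 were lower in macrophages.

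**Figure D5:**
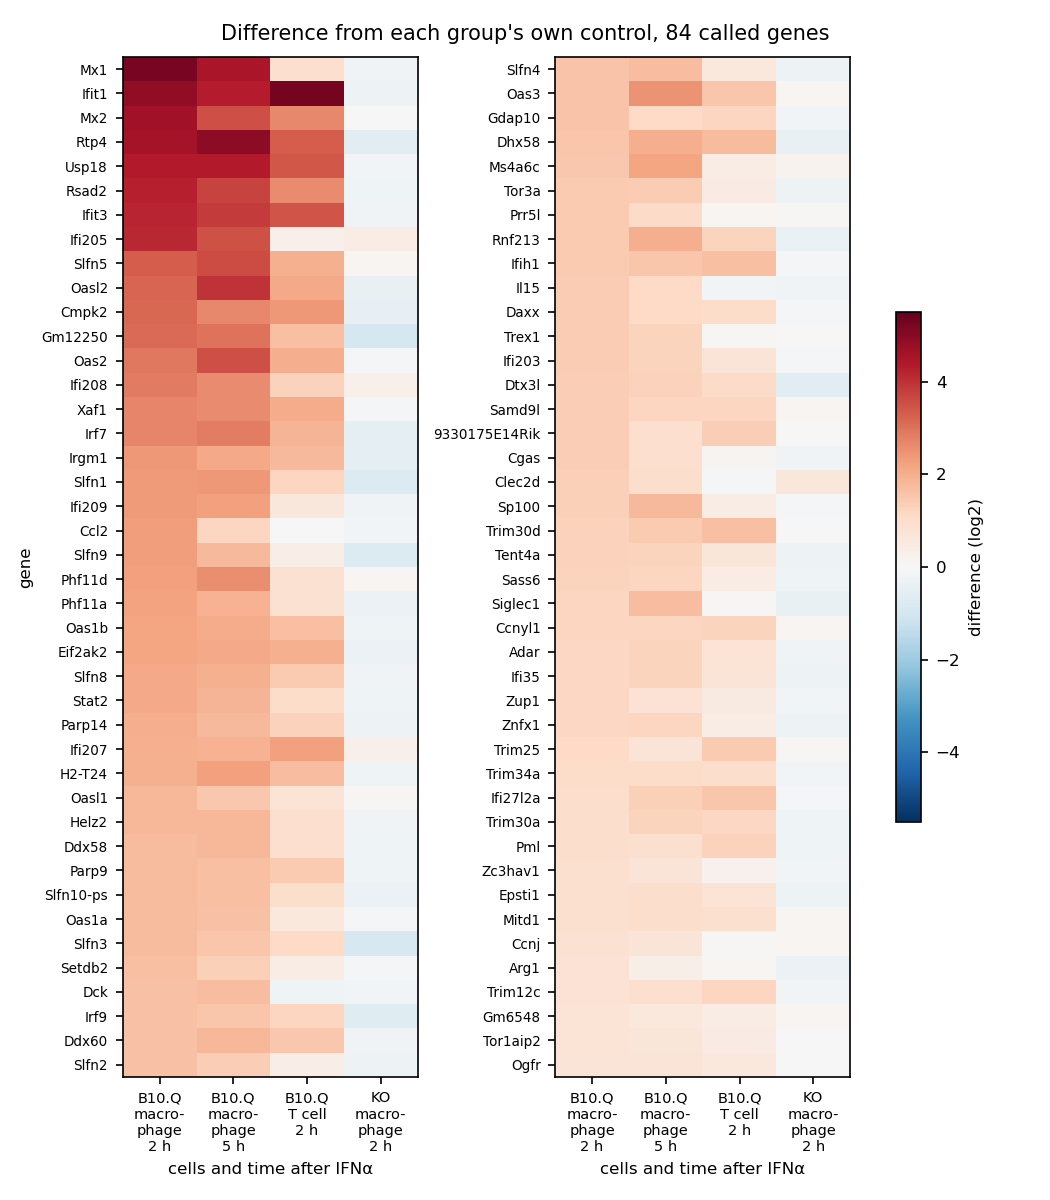
Difference (log2) of each of the 84 called genes, sorted by the 2 h value in B10.Q macrophages, in 4 comparisons: B10.Q macrophages at 2 h and at 5 h of IFNα (which share the vehicle arrays), B10.Q T cells at 2 h and KO macrophages at 2 h, each against its own control. Red is higher and blue lower; the KO column runs from -0.98 to 0.60 and the first column from 0.71 to 5.22.

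At 5 h of IFNα, read against the same vehicle arrays, some members stood at other values than at 2 h. Oas3 stood at 1.56 after 2 h and 2.48 after 5 h, Oas2 at 2.90 and 3.55, Rnf213 at 1.44 and 2.01, and Siglec1 at 1.20 and 1.70. Ccl2 was at 2.30 and 1.20, Arg1 at 0.80 and 0.33, Mx2 at 4.63 and 3.56, and Cgas at 1.34 and 0.94. These pairs are given side by side without a test, since they share their controls.

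Probe sets that name several genes or none were not part of the comparison above. In a fit of all probe sets, 5 of 736 with several symbols were called higher (0.679%), as were 13 of 951 without a symbol (1.37%) and 81 of 11533 with 1 symbol (0.702%).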

How the data were processed

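Per the submitters' processing notes the arrays were summarised with RMA in Affymetrix Power Tools, with no version given; a joint normalisation of the arrays is not given in the sources used here. The deposited values are intensities on a linear scale, and their log2 was taken here without further scaling. Of 24922 probe sets 21425 carried 1 gene symbol. A gene with several probe sets was represented by the one with the highest mean, which left 19752 genes. Genes entered a test if 2 or more of its arrays exceeded the respective array median. Genes dim without IFNα could enter only through IFNα arrays, so the share of a list that rose is partly set by this filter. Limma 3.58.1 (lmFit, eBayes) in R 4.3.3 fitted 10 macrophage arrays in 5 groups, or the 12 B10.Q arrays in 6 groups for T cells. Tests were two-sided with Benjamini-Hochberg adjustment over all genes tested, and called means an adjusted p under 0.05. Errors are SE of the log2 difference. Arrays have no read depth, and their number limits the precision. The procedure was run on simulated data with independent noise for each gene and array. Shifts of a whole array, as in IFNα array 1, were not simulated.

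Members and gene lists were chosen with earlier results of these data known. Genes that could be named were every called gene, the 12 lower genes with the smallest p, up to 6 members of each list with the largest difference, all tested IFIT, ISG15, signalling and clock genes, and the cell type markers. Oas1c and Trim12a, the members of their gene clusters without a call, Ifi213 and genes called under a single alternative were named after their values were seen. Alternatives were other filters, scalings, variance models and probe set rules, a replicate block, all 16 arrays, only the 4 arrays, and leaving out each array; the fit of all probe sets was chosen after seeing the data. Promoters are from RefSeq (GRCm38.p6).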

Additional observations from a re-analysis of the deposited data

Results flagged for a closer look

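The 2 h response differed between B10.Q and KO macrophages for 43 genes by the test of the difference; 2 of them, Chek1 and Axl, were not called in B10.Q. It differed between B10.Q macrophages and T cells for 3 genes, Mx1 (4.30, macrophage minus T cell), Trex1 (1.34) and Dck (1.88). Outside the comparison of named genes, 5 probe sets with several symbols and 13 without a symbol were higher at 2 h than with vehicle. The largest difference among those without a symbol was 2.52 ± 0.27 (limma adjusted p = 0.00285), from 8.82 and 8.97 with vehicle to 11.80 and 11.04 with IFNα. Among those with several symbols it was 3.04 ± 0.67, from 6.79 and 6.83 to 10.61 and 9.10, and was not called (adjusted p = 0.121). With 2 arrays a group, single extreme arrays were not tested for.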

How the results depend on the processing

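The count of 84 higher genes lay between 75 (replicate block) and 122 (only the 4 arrays compared) under 9 alternatives that kept all 4 arrays, and between 34 and 121 when single arrays were left out. All 84 kept their direction under the 13 alternatives in which they were tested, and 29 kept their call under each. Lower genes numbered 0, and 1 without a filter and with all 16 arrays (Mgst2 in both), 1 with only the 4 arrays (Tubb2a), and 0 to 2 without single arrays. The difference between B10.Q and KO responses was called for 43 genes, for 72 with all 16 arrays, and for 8 to 490 without single arrays; the replicate block gave 41. That between macrophages and T cells was called for 3 genes, for 7 without a filter, 5 after median subtraction, 6 with trend and robust variances, and 1 to 507 without single arrays. The 490 and 507 came without KO IFNα array 2 and T-cell IFNα array 2, and 131 and 243 of them were lower in B10.Q macrophages, where all 43 and all 3 were higher. The cause of these shifts was not tested. Deviations from the group mean of arrays of the same number correlated at r = -0.01 between IFNα and vehicle. Over all pairs of groups r ran from -0.29 to 0.46. With 2 arrays per group this cannot tell whether the numbers pair the arrays. The replicate block changed the call of 9 of the 84. With an array left out, its group is 1 array. In the 84 genes the IFNα and vehicle pairs did not overlap. Leaving out an array or changing the filter or variance model therefore could not reverse their direction, and the kept direction is no separate support. Signal near background limits the 7 genes whose vehicle values lay in the lower quartile.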
